A study of Mus musculus with 10 samples.

Results

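This section describes 10 genes that carry cholesterol out of cells and through plasma, in a visceral fat depot of the mouse, the white adipose tissue beside the epididymis. They are the apolipoproteins Apoe, Apoc1 and Apoc2, the plasma transfer protein Pltp, the exporters Abca1 and Abcg1, the nuclear receptor Nr1h3, the lysosomal proteins Npc1 and Npc2, and the esterifying enzyme Soat1. The genes were chosen by name, and every probe set whose platform annotation gave exactly 1 symbol from this list was taken. That rule found 16 probe sets for 9 genes, of 45037 non-control probe sets and 18193 genes in all. Soat1 was named by no probe set with a single symbol and is not analysed here.

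The tissue came from male C57BL/6J mice that were 8 weeks old when the diets began. A group of 5 mice ate normal chow (CRF-1) for 8 weeks, and a group of 5 mice ate a high-fat diet with 60% fat for the same time. Total RNA of each mouse was hybridised to 1 Affymetrix mouse expression array, and the tests rest on the differences among single mice. Levels are quantile-normalized log2 intensities, and a change is the high-fat mean minus the chow mean on that scale. Its standard error (SE) comes from limma.

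Cholesterol that reaches a cell in lipoproteins is freed in the lysosome, where Npc2 hands it to Npc1 for passage to other membranes. Excess cholesterol is esterified by Soat1 or exported by Abca1 to lipid-poor apolipoprotein and by Abcg1 to high-density lipoprotein. Oxysterols made from the excess bind Nr1h3, the liver X receptor alpha (LXR alpha), which switches on Abca1, Abcg1, Apoe, Apoc1, Apoc2 and Pltp. In fat, adipocytes and macrophages both use this pathway, and the liver makes much of the body's circulating apolipoprotein.

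RefSeq promoter entries (GRCm38.p6) matched 7 of the 10 symbols. The upstream bases of 3 genes are shown: those of Abca1 and Apoc2 because a nuclear receptor motif was found there, and those of Pltp because it had the largest rise among the members. Capitals mark the motifs found by search on both strands: the E-box CACGTG, the nuclear receptor half-site AGGTCA, the TATA box TATAAA, the GC box GGGCGG, and a loose DR4 repeat, written here as GGTNA, 5 free bases and GGTNA and chosen with the known LXR element of Abca1 in mind. The 160 bases before the start of Abca1 (chr4:53159896-53160055, minus strand), the 160 before Pltp (chr2:164857709-164857868, minus strand) and the 140 before Apoc2 (chr7:19677942-19678081, minus strand) read 5′ to 3′ as follows.
Abca1: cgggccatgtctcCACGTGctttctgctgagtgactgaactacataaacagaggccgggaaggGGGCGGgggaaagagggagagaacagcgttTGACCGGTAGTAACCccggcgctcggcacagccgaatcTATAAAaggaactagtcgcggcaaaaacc
Pltp: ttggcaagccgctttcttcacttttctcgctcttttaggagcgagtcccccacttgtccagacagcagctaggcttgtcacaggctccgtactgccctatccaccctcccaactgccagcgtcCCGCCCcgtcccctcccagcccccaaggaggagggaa
Apoc2: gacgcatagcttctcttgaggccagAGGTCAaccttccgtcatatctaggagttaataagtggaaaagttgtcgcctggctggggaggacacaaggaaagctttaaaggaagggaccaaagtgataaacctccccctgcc

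In the Abca1 window the DR4-like repeat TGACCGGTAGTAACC lay on the opposite strand, 67 to 53 bases before the start. The E-box lay 147 to 142 bases before the start, the GC box 97 to 92 and the TATA box 29 to 24, and none of these motifs overlapped another. Among 32851 promoter windows of 160 bases, 0.39% held the DR4-like repeat, 4.5% the E-box, 8.01% the TATA box and 29.3% the GC box. The Pltp window held a GC box 37 to 32 bases before the start and no other motif of this search. The Apoc2 window held the half-site 115 to 110 bases before the start, as did 8% of windows of 140 bases.

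On their brightest probe sets, most of the genes in this pathway did not differ between the diets beyond the spread among the arrays. With 1 probe set per gene, the brightest, 2 of the 9 measured genes passed an adjusted p of 0.05 (limma, Benjamini-Hochberg over all genes). Among all 18193 genes 25.9% passed, so the count is near the background. Pltp rose, as did 12.9% of all genes, and Apoc1 fell, as did 13.1%. The median change of the 9 genes was 0.30, beside -0.037 for all genes. The 5 chow arrays were not alike, and for 8 of the 9 genes the change depended on which of them were used, as described beside each gene.

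**Figure D1:**
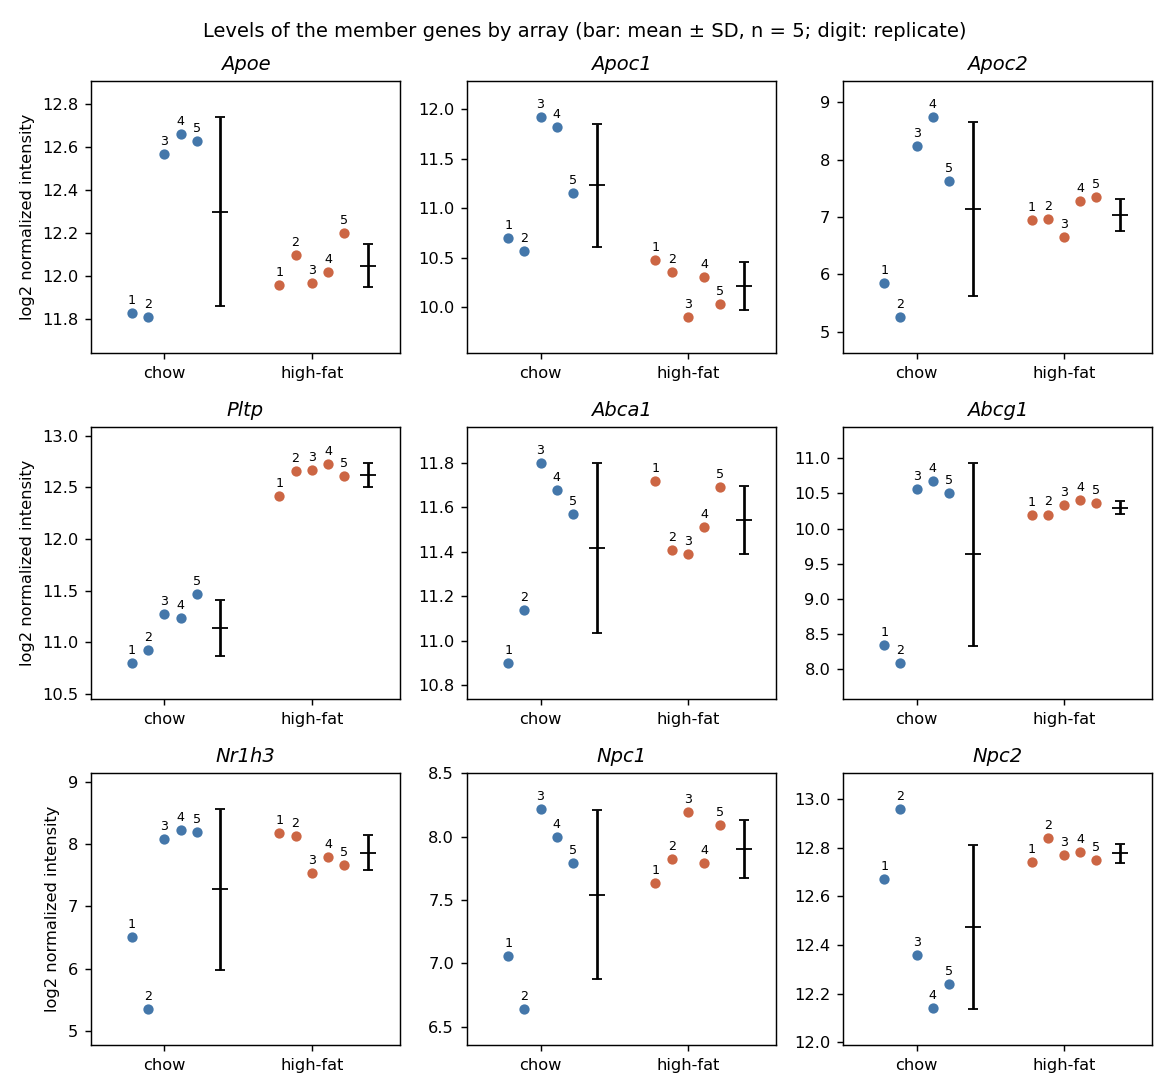
Log2 normalized intensity (y axis, scaled per panel) of the brightest probe set of 9 genes in 5 chow and 5 high-fat arrays. Points are single mice with their replicate number, and the bar to the right of each group is the mean ± SD. The high-fat points lie close together, while chow arrays 1 and 2 lie far below chow arrays 3 to 5 for Apoc2, Abcg1 and Nr1h3; only Pltp and Apoc1 have groups that do not overlap.

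The chow arrays differed in transcripts of other tissues, which bears on every gene below. The mean of 11 epididymis and testis markers ran from 7.27 to 11.67 on chow and from 3.86 to 5.35 on the high-fat diet, and 7 of the 11 fell. The mean of 7 epithelial markers ran from 6.96 to 10.42 and from 4.09 to 4.77, and all 7 fell, as did all 5 smooth muscle markers. None of 7 endothelial markers passed the threshold, 1 of 8 adipocyte markers (Lep) rose, and 4 of 7 stromal progenitor markers rose. These counts also turned on the chow arrays. Without chow arrays 1 and 2 (38.2% of all genes passed) all 7 endothelial markers fell, and 1 adipocyte marker rose and 3 fell. Without chow arrays 3, 4 and 5 (35.8%) 4 endothelial and 4 adipocyte markers rose and none fell. Of the stromal progenitor markers 4 rose and 1 fell in each of these fits. The mean of 10 hepatocyte genes, a list written after the data were seen, was 6.22 and 6.61 in chow arrays 1 and 2 and 10.30, 11.01 and 9.55 in chow arrays 3, 4 and 5. On the high-fat diet it was 5.68, 4.96, 5.78, 5.38 and 7.54, and 5 of the 10 genes fell. Albumin (Alb), the main secreted protein of hepatocytes, had levels of 9.36, 9.57, 12.88, 13.04 and 12.42 in chow arrays 1 to 5. On the high-fat diet its levels were 8.79, 7.71, 8.71, 8.29 and 10.77. Adipocyte markers were measured at high levels in all arrays. Their mean was lowest in chow arrays 1 and 2 (11.16 and 10.41, against 11.88 to 12.54 in the other chow arrays and 11.93 to 12.40 on the high-fat diet). In those 2 arrays the smooth muscle mean was 12.35 and 9.98 and the epididymis and testis mean 9.25 and 11.67. In chow arrays 3, 4 and 5 the smooth muscle mean was 9.92, 9.29 and 9.13 and the epididymis and testis mean 10.09, 7.88 and 7.27. Both means were higher in every chow array than in any high-fat array. Whether samples of either diet held tissue other than adipose was not tested. Means of 12 macrophage markers did not overlap between the diets (6.82 to 7.49 on chow, 10.53 to 11.22 on the high-fat diet), and 11 of the 12 rose. For the actin control the ratio of 5′ to 3′ intensity, a sign of RNA integrity, ran from 0.272 to 0.456 on chow and from 0.557 to 0.643 on the high-fat diet. The part of these differences in the results was not tested beyond the fits given. In bulk tissue fewer cells of a type and less RNA per cell cannot be told apart.

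**Figure D2:**
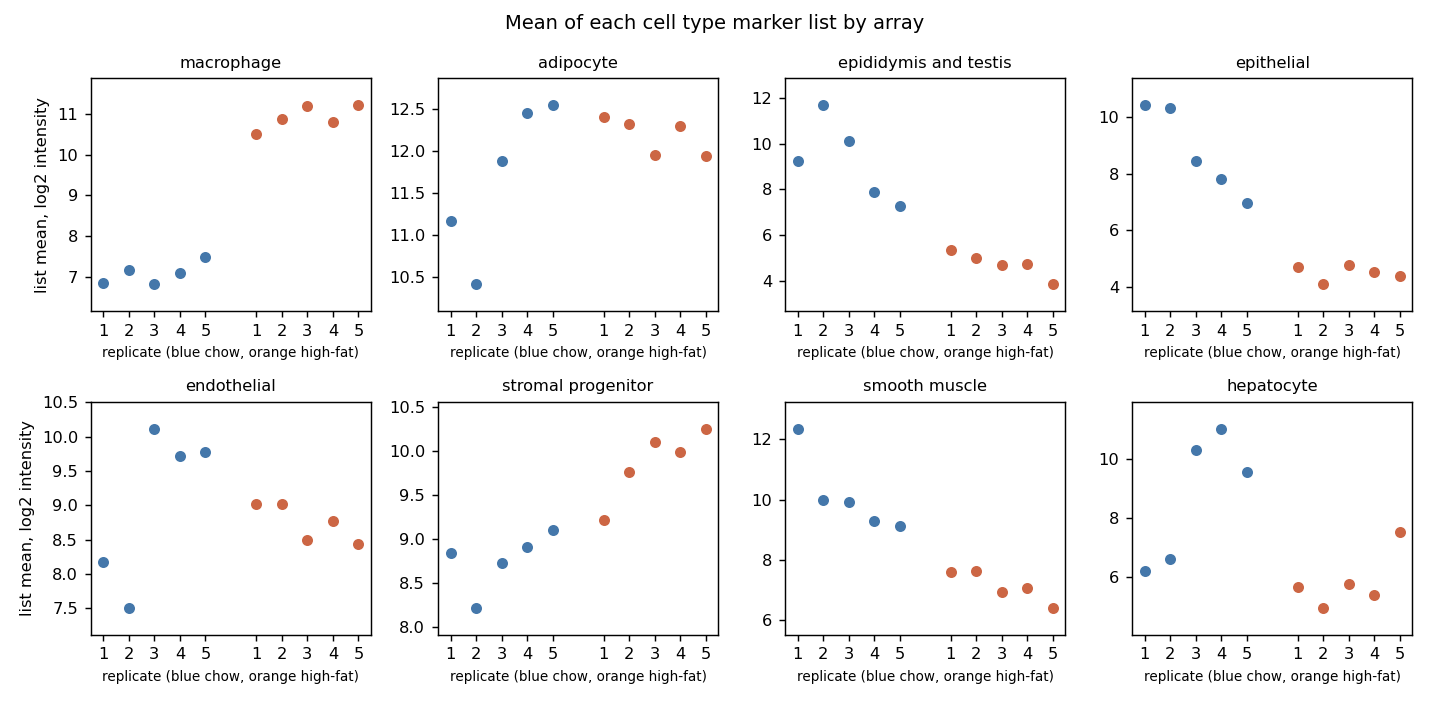
Mean log2 intensity (y axis, scaled per panel) of 8 cell type marker lists in each array, by replicate number (x axis), chow in blue and high-fat in orange. The hepatocyte list is high in chow arrays 3, 4 and 5 (9.55 to 11.01) and the epithelial list is highest in chow arrays 1 and 2 (10.42 and 10.32).

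Pltp encodes the phospholipid transfer protein, which moves phospholipid between lipoproteins in plasma and enlarges high-density lipoprotein. Its levels were 10.80, 10.93, 11.27, 11.24 and 11.47 in chow arrays 1 to 5. On the high-fat diet they were 12.42, 12.66, 12.67, 12.73 and 12.61. Every high-fat array lay above every chow array, with a gap of 0.95, while the chow arrays spanned less than that. Pltp rose by 1.48 (SE 0.14, adjusted p = 4.63e-05 by limma), or 2.78-fold, from 11.14 ± 0.27 to 12.62 ± 0.12 (SD, n = 5 each). The 2-sided exact permutation p was 0.00794, the smallest that 252 arrangements can give, and 22.5% of all genes had groups that did not overlap.

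Pltp was the member whose call held whichever chow arrays were used. It rose by 1.24 (SE 0.097, adjusted p = 1.16e-05 by limma) with chow arrays 1 and 2 left out, and by 1.73 (SE 0.12, adjusted p = 2.45e-05) with chow arrays 3, 4 and 5 left out. With the hepatocyte mean as a covariate the change was 1.72 (SE 0.16, adjusted p = 5.96e-05). That mean had a correlation of -0.687 with diet, which bears on every fit that uses it. With the epididymis and testis mean as a covariate it was 1.05 (SE 0.26, adjusted p = 0.0507), just outside the threshold. The macrophage marker mean was high in the same 5 arrays as Pltp, with a correlation of 0.992 with diet. With it as a covariate the Pltp change was -0.030 with an SE of 1.02, so its part and that of the diet cannot be told apart. Pltp had the same direction in a second probe set, 1417963_at, which rose by 2.86 (SE 0.19, adjusted p over all probe sets = 3.35e-06), from 7.85 ± 0.32 to 10.71 ± 0.31.

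The genes whose profile over the 10 arrays was nearest to that of Pltp were Plekhm3, Naip6, a member of a near-identical family of inflammasome sensors, and the MHC class II chain gene H2-Aa. Their root mean square differences from the centred Pltp profile were 0.088, 0.12 and 0.13 on the log2 scale, over 10 arrays and among 11798 genes brighter than the median probe set. Their changes were 1.42, 1.58 and 1.59.

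Apoe, Apoc1 and Apoc2 lie in a cluster on chromosome 7 in which the order is Apoc2, Apoc4, Apoc1, Apoe. Apoc1 encodes a small apolipoprotein that slows the uptake of lipoprotein remnants. Its levels were 10.70, 10.57, 11.92, 11.82 and 11.15 in chow arrays 1 to 5 and 10.48, 10.36, 9.90, 10.31 and 10.03 on the high-fat diet. The groups did not overlap, but the gap was only 0.090, and it lay between chow array 2 and high-fat array 1. Apoc1 fell by 1.02 (SE 0.27, adjusted p = 0.0169 by limma), which is 2.02-fold, from 11.23 ± 0.62 to 10.22 ± 0.24 (SD, n = 5 each; 2-sided exact permutation p = 0.00794, the smallest possible).

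The fall of Apoc1 depended on the chow arrays and on the scaling. With chow arrays 1 and 2 left out the change was -1.40 (SE 0.19, adjusted p = 0.000248). With chow arrays 3, 4 and 5 left out it was -0.43 (SE 0.17, adjusted p = 0.0799), and with the hepatocyte mean as a covariate -0.45 (SE 0.27, adjusted p = 0.243). With the epididymis and testis mean as a covariate the change was larger, at -1.44 (SE 0.57), and did not pass (adjusted p = 0.15). The chow arrays with the most Apoc1, 3 and 4, also had the highest hepatocyte means. High-fat array 5 had a higher hepatocyte mean (7.54) than chow arrays 1 and 2 (6.22 and 6.61). Its Apoc1 level was lower, at 10.03 against 10.70 and 10.57. On the values as deposited the change was -0.65 (adjusted p = 0.127) and with arrays centred on their medians -0.51 (adjusted p = 0.160). The median of all genes was 0.078 and 0.21 under those scalings, so relative to it Apoc1 differed by -0.73 under both, and by -0.98 after quantile normalization. Pltp changed by 1.73 and 1.87 under them, and passed. With arrays centred on their medians Abca1 (0.58, adjusted p = 0.0250) and Npc2 (0.58, adjusted p = 0.0395) passed too. In that fit 32.2% of all genes passed, and relative to the median of all genes Abca1 and Npc2 each differed by 0.37.

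The genes nearest to Apoc1 in profile were Mapk1ip1, the aminotransferase gene Kyat3 and the sphingosine 1-phosphate transporter Spns2, with root mean square differences of 0.17, 0.17 and 0.18. Their changes were -1.04, -1.1 and -0.90.

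Apoe encodes the ligand by which lipoprotein remnants are taken up through receptors of the low-density lipoprotein family. Its levels were 11.83, 11.81, 12.57, 12.66 and 12.63 in chow arrays 1 to 5 and 11.96, 12.10, 11.97, 12.02 and 12.20 on the high-fat diet. The high-fat arrays lay between the chow arrays, above 1 and 2 and below 3, 4 and 5. Over all arrays Apoe differed by -0.25 (SE 0.19, 95% interval -0.67 to 0.17, adjusted p = 0.383). Without chow arrays 1 and 2, where 38.2% of all genes passed, it fell by 0.54 (SE 0.085, adjusted p = 0.000718), and without chow arrays 3, 4 and 5, where 35.8% passed, it differed by 0.23 (SE 0.11, adjusted p = 0.145). With the epididymis and testis covariate Apoe differed by -1.0 (SE 0.33, adjusted p = 0.0953). The sign of Apoe also turned on the values as deposited (0.0082) and with array medians (0.14), as did that of Apoc2 (0.061 and 0.20). Relative to the median of all genes the sign did not turn. Apoe was then -0.070 and Apoc2 -0.017 under both scalings, and -0.21 and -0.067 after quantile normalization.

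Apoc2 encodes the cofactor that lipoprotein lipase needs to release fatty acids. Its levels were 5.84, 5.25, 8.23, 8.74 and 7.63 on chow and 6.94, 6.97, 6.65, 7.28 and 7.34 on the high-fat diet. As with Apoe, the high-fat arrays fell between the low pair and the high trio of chow arrays, and the chow SD was 1.52 against 0.28. Over all arrays Apoc2 differed by -0.10 (SE 0.60, 95% interval -1.43 to 1.22, adjusted p = 0.921). It fell by 1.18 (SE 0.24, adjusted p = 0.00330) without chow arrays 1 and 2 and rose by 1.54 (SE 0.25, adjusted p = 0.00189) without chow arrays 3, 4 and 5, and with the hepatocyte covariate it rose by 1.58 (SE 0.37, adjusted p = 0.00905). Each of these fits passed the threshold, in opposite directions. With the epididymis and testis covariate Apoc2 differed by -2.46 (SE 1.05, adjusted p = 0.176).

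Within the cluster each gene was set against Apoe in the same array. The difference of Apoc1 from Apoe in the same array shifted by -0.77 between the diets (2-sided exact permutation p = 0.00794, adjusted p = 0.0198 over 10 such pairs). The groups touched, with a gap of 0.00029. On the values as deposited the shift was -0.66, the groups overlapped and the adjusted p was 0.0529 (exact permutation p = 0.0159). The same shift was 0.14 for Apoc2 (exact permutation p = 0.770) and -0.84 for Apoc4 (exact permutation p = 0.222), which is no member. Apoc4, a mainly hepatic apolipoprotein, had levels of 6.02, 6.41, 9.01, 9.56 and 7.44 on chow and 6.37, 6.42, 6.17, 6.56 and 7.47 on the high-fat diet. It was high in the chow arrays with high hepatocyte means and, among high-fat arrays, in array 5, where that mean was also highest.

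Abca1 encodes the exporter that gives cholesterol and phospholipid to lipid-poor apolipoprotein, and its upstream bases are those shown with the DR4-like repeat. Its brightest probe set, 1421840_at, had levels of 10.90, 11.14, 11.80, 11.68 and 11.57 on chow and 11.72, 11.41, 11.39, 11.51 and 11.69 on the high-fat diet. The groups overlapped, and only chow arrays 1 and 2 lay below the high-fat range. The difference was 0.13 (SE 0.18, 95% interval -0.26 to 0.52, adjusted p = 0.646). It was -0.14 (adjusted p = 0.343) without chow arrays 1 and 2 and 0.52 (SE 0.13, adjusted p = 0.0166) without chow arrays 3, 4 and 5.

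The other Abca1 probe sets were dim. Probe set 1421839_at had levels of 4.37, 3.94, 4.53, 5.35 and 4.78 on chow and 5.25, 5.49, 5.17, 6.25 and 5.60 on the high-fat diet, and rose by 0.96 (SE 0.30, adjusted p over all probe sets = 0.0481). Probe set 1450392_at rose by 1.03 (SE 0.32, adjusted p over all probe sets = 0.0466), from 3.76 ± 0.45 to 4.80 ± 0.47. Both calls lie at the edge of the threshold. They held with array medians and were lost on the values as deposited and with array weights. When single arrays were left out, both held without chow array 4 and were lost in every other such fit. On the log2(value + 16) scale, which damps dim values, the changes were 0.64 and 0.57, and of these probe sets 1450392_at passed. Their shifts against the brightest probe set in the same arrays were 0.83 and 0.91 (exact permutation p = 0.0159 and 0.00794, adjusted p = 0.0317 and 0.0198). On the values as deposited these shifts were 0.43 and 0.45 and did not pass (exact permutation p = 0.127 and 0.183, adjusted p = 0.212 and 0.228).

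Abcg1 encodes the exporter that loads cholesterol onto high-density lipoprotein. Its levels were 8.35, 8.09, 10.56, 10.68 and 10.50 on chow and 10.19, 10.20, 10.33, 10.40 and 10.37 on the high-fat diet. The 5 high-fat arrays spanned far less than the chow arrays, with an SD of 0.098 against 1.30, and lay above chow arrays 1 and 2 but below the other 3. The difference over all arrays was 0.66 (SE 0.50, 95% interval -0.45 to 1.78, adjusted p = 0.376). Its second probe set, 1455221_at, differed by 0.68 (SE 0.41, adjusted p over all probe sets = 0.301), and the shift between the pair was 0.015 (exact permutation p = 0.952).

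For Abcg1 as well, the sign of a passing difference turned on the chow arrays. It fell by 0.29 (SE 0.083, adjusted p = 0.0206) without chow arrays 1 and 2. It rose by 2.09 (SE 0.12, adjusted p = 7.53e-06) without chow arrays 3, 4 and 5, a fit with 2 chow arrays. Both fits leave out the split among the chow arrays, whose SD over all 5 was 1.30.

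Nr1h3 encodes LXR alpha, the sterol sensor upstream of the exporters and apolipoproteins. Its levels were 6.51, 5.36, 8.08, 8.23 and 8.20 on chow and 8.17, 8.13, 7.54, 7.79 and 7.67 on the high-fat diet. Chow arrays 1 and 2 were low and the other 8 arrays lay within 7.54 to 8.23. The difference was 0.58 (SE 0.51, 95% interval -0.55 to 1.72, adjusted p = 0.452). It was -0.31 (SE 0.15, adjusted p = 0.143) without chow arrays 1 and 2 and 1.97 (SE 0.32, adjusted p = 0.00174) without chow arrays 3, 4 and 5.

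The profiles nearest to Nr1h3 were those of Aqp7, the glycerol channel of adipocytes, the actin-bundling gene Fscn1 and Cdc42ep1, with root mean square differences of 0.14, 0.16 and 0.18. Their differences of 0.48, 0.63 and 0.72 did not pass the threshold over all arrays. Aqp7 and Fscn1 were -0.43 and -0.38 (adjusted p = 0.0285 and 0.0212) without chow arrays 1 and 2.

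**Figure D3:**
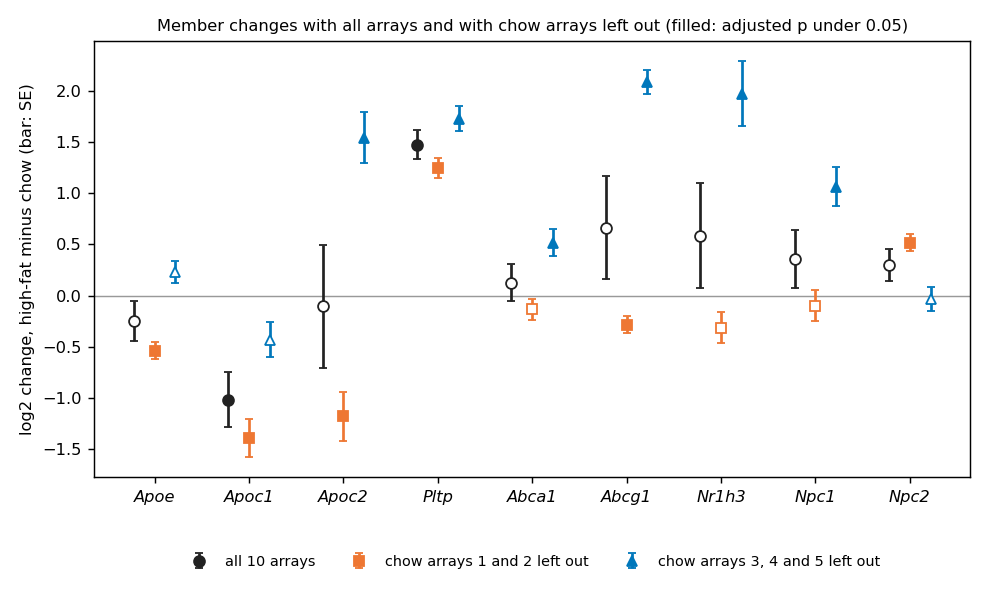
Log2 change on the high-fat diet (y axis, bars are the SE) of the brightest probe set of 9 genes with all 10 arrays, with chow arrays 1 and 2 left out, and with chow arrays 3, 4 and 5 left out. Filled symbols passed an adjusted p of 0.05; Pltp passed in all 3 fits (1.48, 1.24 and 1.73), while Abcg1 passed with a change of -0.29 in one and 2.09 in another.

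Npc1 encodes the lysosomal membrane protein that takes up cholesterol from Npc2. Its levels were 7.06, 6.64, 8.22, 8.00 and 7.79 on chow and 7.63, 7.82, 8.19, 7.79 and 8.09 on the high-fat diet. Again only chow arrays 1 and 2 lay below the high-fat range, and the difference was 0.36 (SE 0.28, 95% interval -0.26 to 0.99, adjusted p = 0.392). It was -0.10 (adjusted p = 0.655) without chow arrays 1 and 2 and 1.06 (SE 0.19, adjusted p = 0.00327) without chow arrays 3, 4 and 5.

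Npc2 encodes the soluble lysosomal protein that binds cholesterol, and it is also known as a main secreted protein of the epididymis. Its brightest probe set, 1416901_at, had levels of 12.67, 12.96, 12.36, 12.14 and 12.24 on chow and 12.74, 12.84, 12.77, 12.78 and 12.75 on the high-fat diet. Here chow array 2 was the highest of all arrays and chow arrays 3, 4 and 5 were the lowest. The epididymis and testis mean was also highest in chow array 2, at 11.67. In chow arrays 1, 3, 4 and 5 that mean was 9.25, 10.09, 7.88 and 7.27, beside Npc2 levels of 12.67, 12.36, 12.14 and 12.24. Chow arrays 1, 2 and 3 thus lay above chow arrays 4 and 5 in both, though the order within these sets differed. The high-fat arrays had means of 3.86 to 5.35 and Npc2 levels of 12.74 to 12.84. The part of epididymal RNA in Npc2 was not tested beyond the covariate fit below. The difference was 0.30 (SE 0.16, 95% interval -0.041 to 0.65, adjusted p = 0.184), and Npc2 rose by 0.52 (SE 0.083, adjusted p = 0.000758) without chow arrays 1 and 2 and by 0.42 (adjusted p = 0.0194) without chow array 2 alone. Without chow arrays 3, 4 and 5 it differed by -0.033 (adjusted p = 0.860). With the epididymis and testis mean as a covariate the Npc2 change was 0.97 (SE 0.24, adjusted p = 0.0517).

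The 4 Npc2 probe sets did not move alike. Probe set 1455768_at had levels of 6.77, 7.07, 6.95, 6.78 and 6.98 on chow and 9.52, 9.86, 9.50, 9.49 and 9.59 on the high-fat diet, with no overlap. It rose by 2.68 (SE 0.11, adjusted p over all probe sets = 3.25e-07), and its chow SD was 0.13, so it did not follow the split among the chow arrays. Probe set 1448513_a_at was bright and differed by 0.058 (SE 0.10, adjusted p over all probe sets = 0.750). Probe set 1443266_at was dim, reached the floor in 1 array and differed by -1.25 (SE 0.59, adjusted p over all probe sets = 0.178). Relative to the brightest probe set, 1455768_at shifted by 2.38 (exact permutation p = 0.00794, adjusted p = 0.0198 over 10 pairs). Which transcript each probe set reads was not tested.

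Over all probe sets of the members, 6 of 16 passed the threshold, 5 higher and 1 lower, beside 17.9% of all 45037 probe sets (9.89% higher and 8% lower). The 5 that rose belong to 3 genes, Abca1, Npc2 and Pltp, and probe sets of 1 gene share a target. Between the probe sets of Pltp the size of the rise differed, with a shift of 1.39 (exact permutation p = 0.00794, adjusted p = 0.0198), and the direction did not.

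**Figure D4:**
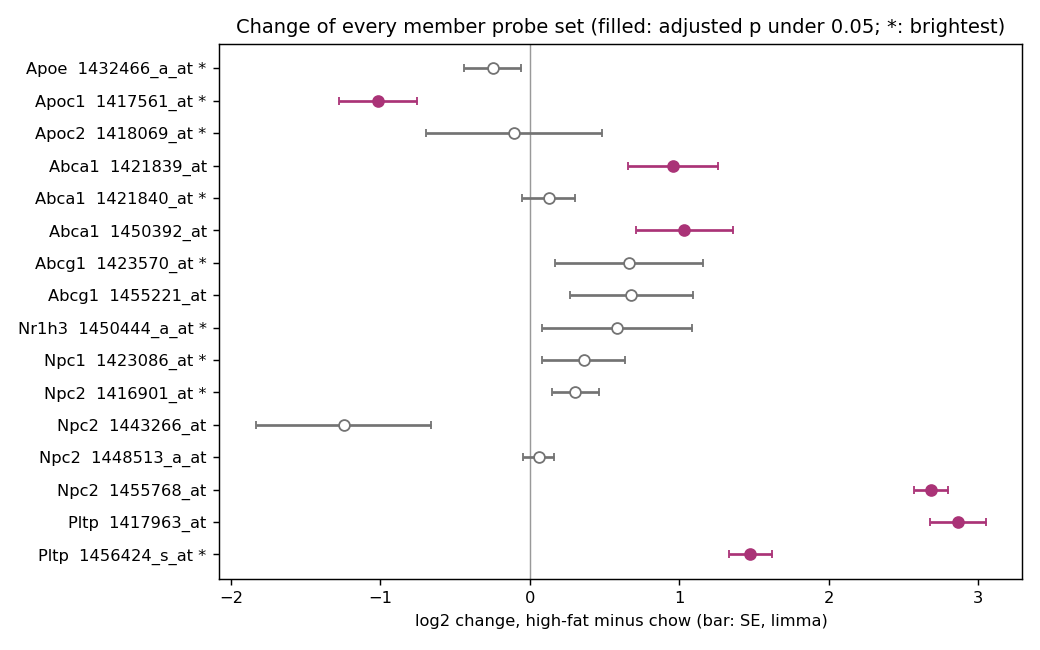
Log2 change on the high-fat diet (x axis, bars are the SE from limma) of all 16 probe sets of the 9 genes, filled where the adjusted p over all probe sets was under 0.05 and starred where the probe set is the brightest of its gene. Probe set 1455768_at of Npc2 rose by 2.68, while its brightest probe set differed by 0.30.

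The other genes of cholesterol handling were read from lists written with earlier results of these data known. Among all genes 12.9% rose and 13.1% fell over all arrays. The share of all genes that passed was 38.2% without chow arrays 1 and 2 and 35.8% without chow arrays 3, 4 and 5. In the lists of sterol transport and of ester enzymes the named genes that rose included Lipa and Nceh1. Lipa, the lysosomal acid lipase, had levels of 8.11, 8.24, 9.29, 9.45 and 9.35 on chow and 11.41, 11.67, 12.13, 11.72 and 12.05 on the high-fat diet. The groups lay far apart, and Lipa rose by 2.90 (SE 0.28, adjusted p = 5.83e-05). Nceh1, a neutral cholesteryl ester hydrolase of macrophages, had levels of 7.42, 5.20, 5.75, 5.84 and 5.42 on chow and 8.86, 9.16, 9.67, 9.24 and 9.60 on the high-fat diet, and rose by 3.38 (SE 0.37, adjusted p = 0.000109). Both also rose without chow arrays 1 and 2 (2.42 and 3.68) and without chow arrays 3, 4 and 5 (3.62 and 3.04), and the macrophage marker mean was high in the same arrays.

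Of 15 genes of lysosomal and membrane-contact sterol transport, 3 rose and 3 fell, with a median change of -0.40. Besides Lipa, the oxysterol-binding protein gene Osbpl8 rose by 1.33 (SE 0.17) and Gramd1c, a sterol carrier of membrane contacts, fell by 1.63 (SE 0.38). Gramd1c was dim and fell by 0.99 on the log2(value + 16) scale. When chow arrays 1 and 2 were left out, 4 rose and 3 fell, and without chow arrays 3, 4 and 5, 4 rose and 6 fell. Of 7 measured ester and oxysterol enzymes, 1 rose and 3 fell (median 0.12). Lcat, which esterifies cholesterol in plasma, fell by 2.3 (SE 0.50), and Ch25h, which makes 25-hydroxycholesterol, fell by 2.1 (SE 0.60). Leaving out chow arrays 1 and 2, 2 rose and 4 fell. Without chow arrays 3, 4 and 5, 4 of these rose and 2 fell, and Lcat differed by -1.35 (adjusted p = 0.0585).

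Of 12 other apolipoproteins, none rose and 8 fell, with a median change of -2.88. Apoa4 fell by 3.88 (SE 0.93), Apoa1, the main protein of high-density lipoprotein, fell by 3.86 (SE 0.96), and Apom fell by 3.73 (SE 0.98). Apoa1 had levels of 8.13, 7.97, 12.07, 12.51 and 11.30 on chow and 6.51, 5.36, 6.44, 5.83 and 8.53 on the high-fat diet, so that it followed the hepatocyte mean across the chow arrays and was highest in high-fat array 5. Without chow arrays 1 and 2 all 12 fell, whereas without chow arrays 3, 4 and 5, 2 fell and none rose, and Apoa1 differed by -1.55 (adjusted p = 0.138). On the log2(value + 16) scale Apom fell by 1.77. Apod did not follow the hepatocyte mean across the chow arrays, with levels of 8.20, 11.17, 9.49, 8.08 and 7.87 in chow arrays 1 to 5.

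Among 9 measured LXR partners and targets, 2 rose and 1 fell, with a median change of 0.089. Smpdl3a, an LXR-induced phosphodiesterase, rose by 0.72 (SE 0.17, adjusted p = 0.00961), Rxrg, a retinoid X receptor with which LXR can pair, rose by 1.26 (SE 0.42, adjusted p = 0.0483), and Rxrb fell by 0.62 (SE 0.19, adjusted p = 0.0325). Rxrb differed by -0.36 (adjusted p = 0.120) on the values as deposited and -0.23 (adjusted p = 0.375) with array medians, and its call was also lost with the replicate block (adjusted p = 0.0844). Without chow arrays 1 and 2, 2 rose and 3 fell, and Rxrg differed by 0.85 (adjusted p = 0.0800). Without chow arrays 3, 4 and 5, 4 rose and none fell, and Rxrb differed by -0.42 (adjusted p = 0.196).

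Of 13 other transporters of the ABCA and ABCG families, 2 rose and 3 fell, with a median change of 0.16. Abcg2, a broad efflux pump, fell by 2.28 (SE 0.51), Abcg3 rose by 2.2 (SE 0.25) and Abcg5, a sterol exporter of liver and gut, fell by 2.12 (SE 0.69). Abcg5 was dim and fell by 0.59 on the log2(value + 16) scale. The Abcg3 probe set was dim on chow (mean 3.60) and rose by 1.34 on that scale. Without chow arrays 1 and 2, 2 rose and 4 fell, and without chow arrays 3, 4 and 5, 5 rose and 4 fell, with Abcg5 at -1.46 (adjusted p = 0.293).

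Of 11 measured lipoprotein receptors and plasma lipases, 3 rose and 1 fell, with a median change of 0.23. The scavenger receptors Msr1 and Olr1 rose by 2.72 (SE 0.33) and 2.52 (SE 0.33), and Lipg, endothelial lipase, fell by 3.28 (SE 0.71). Olr1 was dim, and its change on the log2(value + 16) scale was 1.22. In the fit that left out chow arrays 1 and 2, 3 rose and 2 fell, and in the fit that left out chow arrays 3, 4 and 5, 6 rose and 2 fell.

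**Figure D5:**
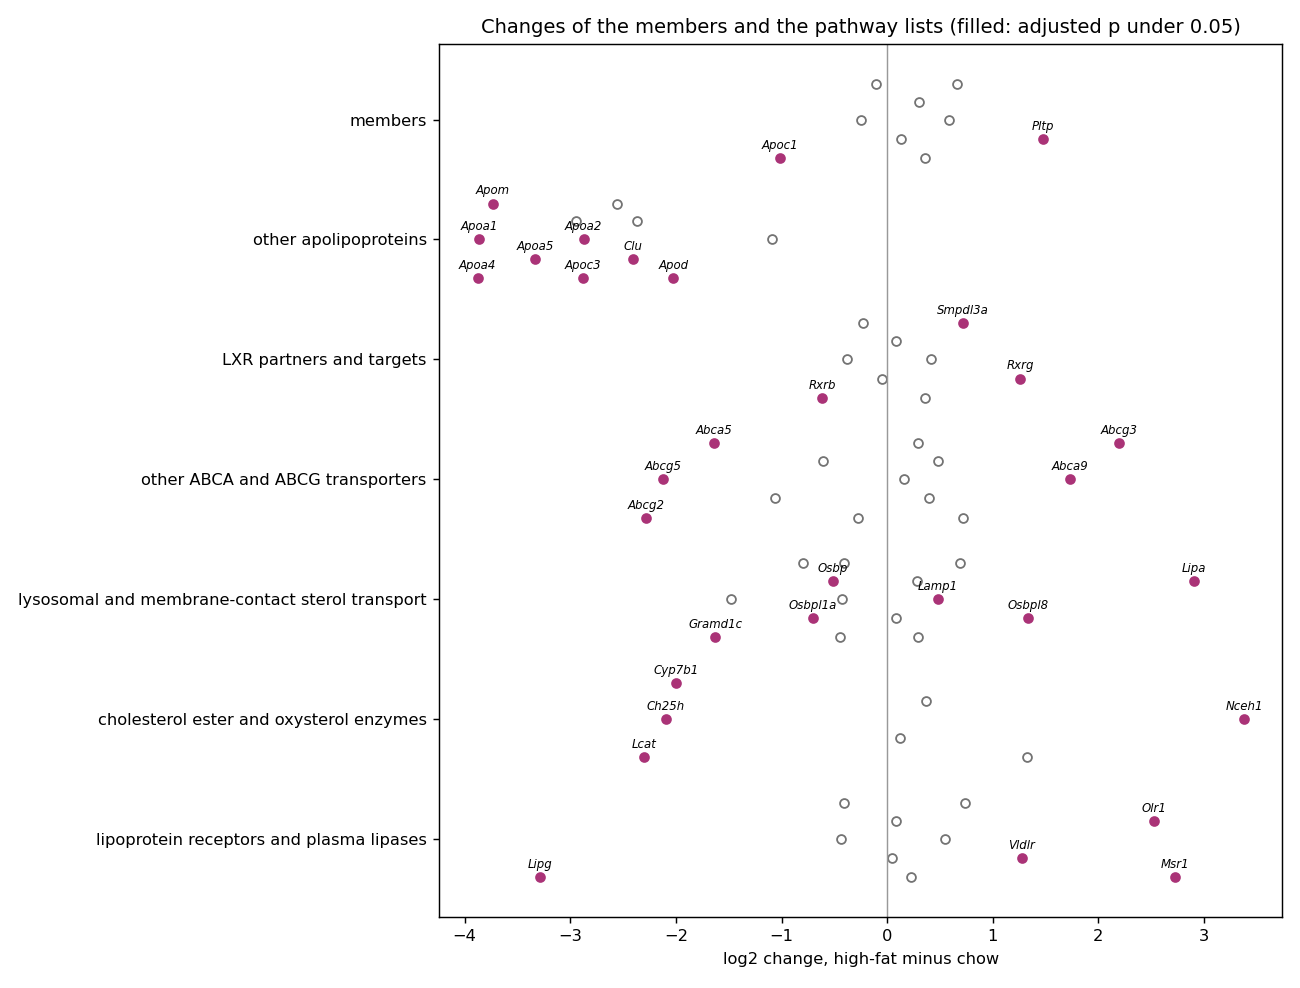
Log2 change on the high-fat diet (x axis) of each measured gene of the members and of 6 further lists of cholesterol handling, filled and named where the adjusted p was under 0.05. The members lie between -1.02 and 1.48; the other apolipoproteins all lie below 0, and Lipa (2.90) and Nceh1 (3.38) lie farthest to the right in their lists.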

How the data were processed

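The values the authors deposited are linear intensities of 45101 probe sets on 10 arrays, hybridised with biotin-labelled cRNA per the labels' protocols. How probes were summarised and arrays scaled is not given in the sources used here. Groups and replicate numbers come from the titles.

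Intensities were floored at the 5th percentile of all values (0.658), log2 transformed and quantile normalized, since the array medians differed by 0.613. The platform's annotation gave the gene names: 34945 probe sets had 1 symbol, 932 several, 9160 were not listed, and 64 were controls. For each gene the probe set with the highest mean was used. limma 3.58.1 in R 4.3.3 (lmFit, eBayes with trend) tested the diets, with Benjamini-Hochberg adjustment over 18193 genes or 45037 probe sets at 0.05. Single values were tested with 2-sided exact permutation over 252 arrangements. The procedure was tested on simulated data. Precision is limited by how few arrays there are.

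The members, lists and alternatives were chosen with earlier results of these data known. The hepatocyte list, its mean as a covariate, and leaving out chow arrays 3, 4 and 5 were added after seeing the data, as were the 10 pairs compared within arrays, also on the values as deposited. Named genes are the members and up to 3 genes per pathway list with the largest passing change (up to 2 per marker list). The 3 profiles nearest to Pltp, Apoc1 and Nr1h3 were named too. Alb, Apoc4 and Apod were named after their values were seen. Alternatives were other scalings, variance priors, array weights, filters, probe-set choices, floors, the replicate block, covariates and arrays left out.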

Additional observations from a re-analysis of the deposited data

Results flagged for a closer look

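In groups of 5, an array was set apart where its gap to the nearest other array, divided by the group's range, passed Dixon's 95% critical value. Of 130 groups tested 7 did so, and chance gives about 1 in 20. Among the member probe sets, Abca1 1450392_at was set apart on chow by array 4 (4.56, the others 3.49 to 3.61; ratio 0.888). Npc2 1455768_at was set apart on the high-fat diet by array 2 (9.86, the others 9.49 to 9.59; ratio 0.735). Pltp 1417963_at was set apart on the high-fat diet by array 1 (10.17, the others 10.72 to 10.93; ratio 0.718). On chow, Nceh1 in array 1 (7.42, the others 5.20 to 5.84; ratio 0.713), Adipoq, the adiponectin gene, in array 2 (12.10, the others 13.00 to 13.24; ratio 0.790) and the smooth muscle marker mean in array 1 (12.35, the others 9.13 to 9.98; ratio 0.735) stood apart. On the high-fat diet Msr1 did so in array 1 (7.18, the others 8.00 to 8.32; ratio 0.716).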

How the results depend on the processing

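Of the 232 values of the members under 26 settings, 179 kept their direction and their side of the threshold, and 29 reversed. In all 21 newly passed, 3 of them reversed, and 8 no longer passed, 2 of them reversed. The count of members that passed, 2 over all arrays, was 1 on the values as deposited (23.3% of all genes passed), 4 with array weights (37.5%; Apoe and Npc2 added), 4 with the mean of each gene's probe sets (21.3%; Abca1 and Npc2 added), 6 without chow arrays 1 and 2 (38.2%; Apoe, Apoc2, Abcg1 and Npc2 added), 0 with the epididymis and testis covariate (4.36%) and 0 with the macrophage covariate. It was 6 with the hepatocyte covariate (29.8%) and 6 without chow arrays 3, 4 and 5 (35.8%), both chosen after seeing the data. In both, Apoc2, Abca1, Abcg1, Nr1h3 and Npc1 were added and Apoc1 was lost. Leaving out each replicate gave 2 to 3 members, 3 to 6 member probe sets and 3652 to 5585 genes. The count of member probe sets was 3 as deposited, 2 and 0 with the epididymis and testis and the macrophage covariates, and 10 both with the hepatocyte covariate and without chow arrays 3, 4 and 5. The share of all probe sets was counted only for the fit used in the results (17.9%). For the other settings the counts of member probe sets are therefore not read as a result about the members. Among all genes 794 passed with the epididymis and testis covariate (correlation with diet -0.888) and 0 with the macrophage covariate in limma, where 391 had an unadjusted p under 0.05.

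On the values as deposited Apoe was 0.0082 and Apoc2 0.061, and with array medians 0.14 and 0.20, each below the median of all genes there. With array weights Abca1 was -0.076, Abcg1 -0.055, Nr1h3 -0.12, Aqp7 -0.20 and Fscn1 -0.17. Without probe sets of shared suffix Trem2 was -0.48. Leaving out single chow replicates gave Abca1 from -0.0012 (without chow 1) to 0.22 (without chow 3), Apoc2 from -0.58 (without chow 2) to 0.30 (without chow 4), with 0.17 and 0.024 without chow 3 and 5, and Aqp7 -0.038 without chow 2. Without chow arrays 1 and 2, Abca1 was -0.14, Abcg1 -0.29, Nr1h3 -0.31, Npc1 -0.10, Adipoq -0.033, Aqp7 -0.43, Fscn1 -0.38 and Cdc42ep1 -0.16. With the epididymis and testis covariate Abca1 was -0.23, Abcg1 -1.42, Nr1h3 -1.62, Npc1 -0.66, Rxrg -0.81, Smpdl3a -0.062, Ch25h 0.73, Lipg 0.71, Lep -0.34, Adipoq -0.64, Col1a1 -0.15, Aqp7 -1.76, Fscn1 -1.96 and Cdc42ep1 -1.44. With the macrophage covariate Apoc1 was 1.35, Abcg1 -1.71, Npc1 -1.08, Pltp -0.030, Smpdl3a -2.49, Abcg2 4.05, Lipa -0.52, Osbpl8 -1.67, Lcat 0.16, Ch25h 0.76, Lipg 0.58 and Msr1 -1.94. With the hepatocyte covariate Apoe was 0.25, Apoc2 1.58 and Npc2 -0.041, and without chow arrays 3, 4 and 5 they were 0.23, 1.54 and -0.033. The cause of these changes was not tested.

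With the replicate number as a block, 2 members, 4 member probe sets and 3762 genes passed. Same-numbered arrays had correlations of deviations from -0.0201 to 0.00561, and none matched its own number best, so the numbers were not taken as pairs. Of all calls 49.6% were higher after quantile normalization, 64.8% on the values as deposited and 75.4% with array medians. Depth has no equivalent here, and dim probe sets limit what small changes can be seen.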
